A study of Mus musculus with 2 samples.

Results

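The nuclear-encoded subunits of oxidative phosphorylation were followed across the cell types of mouse liver tumours from 2 models. Members were chosen by name, as symbols that begin with the prefixes of the complex I (Ndufa, Ndufb, Ndufc, Ndufs, Ndufv), complex II (Sdh), complex III (Uqcr), complex IV (Cox4i, Cox5, Cox6, Cox7, Cox8) and ATP synthase (Atp5) families, without pseudogene-type names, Ndufaf assembly factors, Ndufa4l2 and Cox6a2, and with at least 100 unique molecular identifiers (UMIs) over both libraries. Of 92 entries with such names, 85 met the minimum, out of 55450 genes listed. They comprise 38 genes of complex I, 8 of complex II, 8 of complex III, 14 of complex IV and 17 of complex V, the ATP synthase. Of these, 80 carry subunit names. The other 5 are Sdhaf1, Sdhaf2, Sdhaf3 and Sdhaf4, which help to assemble complex II, and Atp5s, a coupling factor that is not a subunit. Ndufb4c, at 363 UMIs the member with the fewest, is annotated as a processed pseudogene, and the other 84 members are protein coding. Among the 7 entries left out, Cox6c2 came nearest with 28 UMIs.

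Oxidative phosphorylation takes place in the inner mitochondrial membrane. Complexes I and II take electrons from NADH and succinate, complex III passes them to cytochrome c, and complex IV hands them to oxygen. Complexes I, III and IV pump protons, and the ATP synthase uses the gradient to make ATP. Complexes I, III, IV and the ATP synthase also hold subunits encoded by mitochondrial DNA, whereas complex II is encoded wholly in the nucleus. Hepatocytes are rich in mitochondria, and mature neutrophils and red cells are known to rely mainly on glycolysis.

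Tumours had been started in C57BL/6 mice by rapid tail-vein injection of plasmids, which reaches liver cells, and were collected after 14 weeks. Mice of the AKT1.MYC group received 10 µg of an Akt1 and 10 µg of a human c-Myc plasmid with 5 µg of Sleeping Beauty transposase plasmid, the enzyme that inserts the oncogenes into the genome. Mice of the NRAS.MYC.ND group received 19 µg of a human N-Ras and 1 µg of a human c-Myc plasmid with 2 µg of transposase plasmid. Both groups thus carried c-Myc and transposase, at different doses, and the labels name neither the promoters of the plasmids nor the number of mice. Dissociated live cells were profiled with 10x Chromium 3′ chemistry, with 1 library per group, so no value has a replicate check and the text gives no test. Intervals are 95% and cover counting error only. They treat UMIs as independent and take no account of differences between mice or preparations.

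The AKT1.MYC library held 10766 barcodes and 64516171 UMIs, and the NRAS.MYC.ND library 6312 barcodes and 42416125 UMIs. The libraries shared 17 barcode sequences. After filtering, 10310 AKT1.MYC and 5961 NRAS.MYC.ND cells remained, with medians of 1869 and 4387 UMIs. Cells were assigned to a type by UMIs of marker genes, none of which is a member. A single type was given to 6694 AKT1.MYC and 4880 NRAS.MYC.ND cells. In 8 types both libraries had at least 50 cells, and B cells and conventional dendritic cells reached that number only in NRAS.MYC.ND.

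The gated types carried their own markers, but free RNA, the gate thresholds and the makeup of the same type differed between the groups. Spp1, the osteopontin gene, at 33761 CPM in AKT1.MYC hepatocyte-lineage cells, stood at 3931 counts per 1000000 UMIs (CPM) in AKT1.MYC T cells against 399 CPM in NRAS.MYC.ND T cells, and at 6024 CPM in AKT1.MYC neutrophils against 323 CPM in NRAS.MYC.ND neutrophils. Hepatocyte markers summed to 1253 CPM in AKT1.MYC T cells against 4766 CPM in NRAS.MYC.ND T cells. Hepatocyte-lineage cells had hepatocyte markers at 15917 CPM in AKT1.MYC against 102504 CPM in NRAS.MYC.ND, and duct markers at 2164 CPM in AKT1.MYC against 174 CPM in NRAS.MYC.ND. Duct-like cells had duct markers at 12036 CPM in AKT1.MYC against 3183 CPM in NRAS.MYC.ND, and hepatocyte markers at 3301 CPM against 9878 CPM. In NRAS.MYC.ND this class of 52 cells thus held more hepatocyte than duct marker UMIs. The marker level needed to enter these 2 classes differed in the same direction as their own markers. Per 10000 UMIs it was 79.96 in AKT1.MYC against 249.49 in NRAS.MYC.ND for hepatocyte-lineage cells, and 53.29 against 11.69 for duct-like cells. For neutrophils (32.36 against 14.61) and phagocytes (73.79 against 28.79) it was higher in AKT1.MYC, where their marker sums were lower. The AKT1.MYC erythroid class held Krt8, an epithelial keratin, at 2367 CPM against 22.5 CPM in NRAS.MYC.ND, and a median of 1020 UMIs per cell. Neutrophil markers summed to 54031 CPM in AKT1.MYC neutrophils against 218000 CPM in NRAS.MYC.ND neutrophils, and Ngp, a granule gene of immature neutrophils, had 1008 CPM against 9990 CPM. Summed levels were recomputed after subtracting 10% or 30% of UMIs with the average profile of the library, and beyond that the part of these differences in the results was not tested.

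The summed members took a larger share of UMIs in AKT1.MYC than in NRAS.MYC.ND in all 8 types compared. Hepatocyte-lineage cells had the highest share in both libraries, 3.54% of UMIs (3.53 to 3.55) in AKT1.MYC against 2.59% (2.58 to 2.61) in NRAS.MYC.ND. Duct-like epithelial cells followed with 3.17% in AKT1.MYC against 2.30% in NRAS.MYC.ND. Both stood above every other type with at least 50 cells of their own library.

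Outside the epithelium the AKT1.MYC shares lay close together. They were 2.45% in T cells, 2.42% in fibroblasts and pericytes, 2.38% in endothelial cells, 2.36% in neutrophils, 2.33% in mononuclear phagocytes and 2.19% in erythroid cells. In NRAS.MYC.ND the same types spread more widely, with 2.20% in T cells, 1.93% in phagocytes, 1.90% in fibroblasts and pericytes, 1.88% in endothelial cells, 1.35% in neutrophils and 1.14% in erythroid cells. Conventional dendritic cells of NRAS.MYC.ND had 2.02% and B cells 1.47%. The NRAS.MYC.ND erythroid share rests on few cells: without 20 cycling cells the other 51 had 0.497%. The median per cell was 0.413% there, while in AKT1.MYC it was 2.25%. The erythroid rank also depends on the total. Without mitochondrial, ribosomal protein and haemoglobin UMIs, erythroid cells of NRAS.MYC.ND ranked next after hepatocyte-lineage cells. With all UMIs in the total, neutrophils and erythroid cells were the lowest classes of NRAS.MYC.ND and stood near the other non-epithelial classes in AKT1.MYC. In AKT1.MYC both classes carried more Spp1 and less Alb, a hepatocyte gene. Alb had 148 CPM in AKT1.MYC against 1563 CPM in NRAS.MYC.ND in neutrophils, and 237 CPM against 649 CPM in erythroid cells. Beyond the free RNA subtractions, the part of such RNA in these shares was not tested.

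As a log2 ratio of AKT1.MYC over NRAS.MYC.ND, the summed level was 0.94 in erythroid cells, 0.81 in neutrophils, 0.46 in duct-like epithelial cells and 0.45 in hepatocyte-lineage cells. It was 0.35 in fibroblasts and pericytes, 0.34 in endothelial cells, 0.27 in phagocytes and 0.16 in T cells. Most genes were not centred on 0 in these comparisons. The median log2 ratio of genes with at least 10 UMIs in each library was 1.06 in erythroid cells, 0.25 in hepatocyte-lineage cells, 0.13 in neutrophils, 0.09 in phagocytes and 0.08 in T cells, and it was -0.08 in endothelial cells, -0.26 in fibroblasts and pericytes and -0.26 in duct-like cells. Relative to that median the summed members stood at 0.72 in duct-like cells, 0.68 in neutrophils, 0.61 in fibroblasts and pericytes, 0.41 in endothelial cells, 0.20 in hepatocyte-lineage cells, 0.18 in phagocytes, 0.078 in T cells and -0.12 in erythroid cells. The erythroid ratio thus changed sign with the scaling, and the T cell ratio lay between 0.039, after subtracting 30% free RNA, and 0.32, without mitochondrial, ribosomal protein and haemoglobin UMIs in the total.

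Few members stood 2-fold apart, and most of those that did were in neutrophils and erythroid cells. In hepatocyte-lineage cells 2 of 84 measured members (at least 10 UMIs over both libraries) were at least 2-fold higher in AKT1.MYC, against 21.7% of all measured genes, and 2 were at least 2-fold lower, against 12.4% of genes. The higher ones were Cox7a1 and Ndufb5, the lower ones Cox6b2 and Atp5g2. In duct-like cells 4 of 84 were higher (7.26% of genes), which were Cox7a1, Sdhaf1, Cox5a and Uqcrq, and 0 lower (19.3%). T cells had 1 of 83 higher (14.6%) and 2 lower (12.8%), Ndufb4 and Sdhd. The higher one, Cox6b2, rests on 2 UMIs in AKT1.MYC against 14 in NRAS.MYC.ND. Phagocytes had 1 of 85 higher (18.8%), Cox7a1, and 4 lower (9.17%), Cox4i2, Atp5g2, Ndufb4c and Sdhd. Endothelial cells had Cox7a1 alone higher of 84 (10.2%), on 8 UMIs in AKT1.MYC against 4 in NRAS.MYC.ND, and Atp5s alone lower (12.7%). Fibroblasts and pericytes had Cox4i2, Cox6b2 and Ndufs4 higher of 84 (11.7%) and Atp5s lower (16.9%). Neutrophils had 22 of 83 higher (29.9%) and 0 lower (8.01%), and erythroid cells 34 of 76 higher (39.1%) and 1, Cox6b2, lower (17.6%). The members' share was below that of all measured genes in each of these counts except the higher count of erythroid cells. Members are mostly well counted, and among genes with at least 100 UMIs the shares higher and lower were 16.9% and 8.27% in hepatocyte-lineage cells, 7.05% and 10.4% in duct-like cells, 4.62% and 14.3% in T cells and 9.92% and 6.66% in phagocytes. They were 4.65% and 8.15% in endothelial cells, 10.7% and 9.28% in fibroblasts and pericytes, 24.6% and 7.49% in neutrophils and 29.6% and 26.6% in erythroid cells. Against these, the higher count of neutrophils also lay above the share of genes.

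The difference was a small shift of many members. Hepatocyte-lineage cells had 72 of 84 measured members above a log2 ratio of 0, with a median of 0.44, where genes with at least 100 UMIs had a median of 0.31. Duct-like cells had 71 of 84 above 0 with a median of 0.42 (all genes -0.14). Endothelial cells had 70 of 84 with a median of 0.28 (all genes -0.13), phagocytes 68 of 85 with 0.29 (all genes 0.08), fibroblasts and pericytes 63 of 84 with 0.28 (all genes -0.05), neutrophils 79 of 83 with 0.82 (all genes 0.39), erythroid cells 73 of 76 with 0.92 (all genes 0.34) and T cells 53 of 83 with 0.09 (all genes -0.17). Of all genes with at least 100 UMIs, 67.0% were above 0 in hepatocyte-lineage cells, 41.9% in duct-like cells, 40.6% in endothelial cells and 56.3% in phagocytes. The share was 47.2% in fibroblasts and pericytes, 66.2% in neutrophils, 58.0% in erythroid cells and 39.8% in T cells. In each of the 8 types the members' median lay above that of genes with at least 100 UMIs over both libraries. In erythroid cells it lay below the median of 1.06 over genes with at least 10 UMIs in each library. With at least 30 UMIs in every type, 67 members could be followed through all 8, and 32 of them, or 47.8%, were above 0 in each, against 16.7% of 1419 genes, while 0 were below 0 in each, against 4.58% of genes. The 8 types share 2 libraries, so they are no independent repeats.

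Levels are UMIs counted at 3′ ends and are compared between libraries for 1 gene or group, not between genes. Complex I, the NADH dehydrogenase and entry point of most electrons, was higher in AKT1.MYC in every type as a sum of its 38 genes. Hepatocyte-lineage cells had 12306 CPM in AKT1.MYC against 8624 CPM in NRAS.MYC.ND, a log2 ratio of 0.51. In these cells 36 of the 38 genes were above 0, against 67.0% of all genes with at least 100 UMIs. Among the core genes, which carry the flavin and iron-sulphur centres, Ndufv1, which binds NADH, had 168 CPM in AKT1.MYC against 89.1 CPM in NRAS.MYC.ND in these cells, and Ndufs3 had 139 CPM against 136 CPM. The core genes described did not go one way: Ndufs7 was above 0 in all 8 types, Ndufs3 in 5 of 8, and Ndufs1 in 3 of the 7 types where it was measured well enough.

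Among the accessory genes of complex I, Ndufb5 had 375 CPM in AKT1.MYC against 170 CPM in NRAS.MYC.ND in hepatocyte-lineage cells (log2 1.14, interval 1.02 to 1.26) and 235 CPM against 88.4 CPM in neutrophils (1.41, 1.02 to 1.83). These intervals leave out a 2-fold difference. Ndufa5, Ndufa6 and Ndufb2 were above 0 in all 8 types, with median log2 ratios of 0.67, 0.71 and 0.65. Ndufb4 went the other way, with 35.0 CPM in AKT1.MYC against 65.3 CPM in NRAS.MYC.ND in phagocytes and 40.0 CPM against 70.9 CPM in endothelial cells, and was below 0 in 6 of 7 types. Ndufb4 has near-identical copies in the mouse genome, Ndufb4c among them, and whether the counting split its reads was not tested. Ndufb4c was also below 0 in all 4 types with at least 30 UMIs, with a median of -0.34. Ndufa4, named as a complex I gene but now placed with complex IV, had 1462 CPM in AKT1.MYC against 1010 CPM in NRAS.MYC.ND in hepatocyte-lineage cells (0.53) and 625 CPM against 747 CPM in T cells (-0.26).

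Ndufa9, an accessory subunit near the quinone site, had 42.7 CPM in AKT1.MYC against 13.7 CPM in NRAS.MYC.ND in neutrophils (1.64) and 63.2 CPM against 37.3 CPM in T cells (0.76). Ndufs4, whose loss is known to cause Leigh syndrome, had 127 CPM in AKT1.MYC against 60.5 CPM in NRAS.MYC.ND in fibroblasts and pericytes (1.07). Of other core genes, Ndufs8 had 153 CPM in AKT1.MYC against 104 CPM in NRAS.MYC.ND in hepatocyte-lineage cells (0.56) and Ndufv2 246 CPM against 174 CPM (0.50). In erythroid cells Ndufa6 had 391 CPM in AKT1.MYC against 80.9 CPM in NRAS.MYC.ND and Ndufa13 373 CPM against 101 CPM, with intervals beyond 2-fold, in the class that also carried Krt8 and Spp1.

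Complex II, the succinate dehydrogenase shared with the citric acid cycle, had lower ratios than the other complexes in every type but erythroid cells. Its 8 genes summed to 532 CPM in AKT1.MYC against 629 CPM in NRAS.MYC.ND in phagocytes (log2 -0.24) and to 495 CPM against 599 CPM in T cells (-0.28). The sum had a log2 ratio of -0.07 in fibroblasts and pericytes, -0.06 in endothelial cells, -0.04 in duct-like cells, 0.08 in hepatocyte-lineage cells and 0.30 in neutrophils. In these 7 types the ratio of complex II lay below that of each of the other 4 complexes. In erythroid cells, where 4 of the 8 genes were measured, it was 1.36 and above the others, which lay between 0.80 and 1.04.

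Within complex II the membrane anchor Sdhd had the lowest median ratio. Sdhd, which holds the haem and quinone site together with Sdhc, had 78.1 CPM in AKT1.MYC against 109 CPM in NRAS.MYC.ND in hepatocyte-lineage cells and 69.9 CPM against 130 CPM in duct-like cells. It had 48.6 CPM in AKT1.MYC against 99.8 CPM in NRAS.MYC.ND in phagocytes, 49.1 CPM against 74.1 CPM in endothelial cells and 42.1 CPM against 90.8 CPM in T cells. Sdhd was lower in AKT1.MYC in all 7 types with at least 30 UMIs, with log2 ratios of -1.11 to -0.46, also under median of ratios scaling and after subtracting 30% free RNA. Sdhc was below 0 in 6 of 7 types, with a median of -0.23, and Sdhb, the iron-sulphur subunit, lay on both sides with a median of 0.04. Sdha, the flavoprotein that oxidises succinate, had 150 CPM in AKT1.MYC against 114 CPM in NRAS.MYC.ND in hepatocyte-lineage cells (0.39) and 95.2 CPM against 112 CPM in endothelial cells (-0.23). Of the assembly factors, Sdhaf4 was above 0 in all 7 types measured well enough, with 31.5 CPM against 4.57 CPM in neutrophils, which rests on 59 UMIs in AKT1.MYC against 3 in NRAS.MYC.ND (2.79, 1.17 to 5.10).

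Sdhaf1 had 58.9 CPM in AKT1.MYC against 27.9 CPM in NRAS.MYC.ND in duct-like cells (1.08). Sdhaf2, which helps to attach the flavin, was above 0 in 6 of 7 types, with a median of 0.40. The exception was T cells, with 21.1 CPM in AKT1.MYC, on 6 UMIs, against 40.7 CPM in NRAS.MYC.ND (-0.95, -2.41 to 0.19). Sdhaf3 had 9.46 CPM in AKT1.MYC against 14.8 CPM in NRAS.MYC.ND in hepatocyte-lineage cells (-0.65) and 11.5 CPM against 7.29 CPM in duct-like cells (0.66), and was below 0 in 4 of 6 types, with a median of -0.35. Among the assembly factors Sdhaf3 alone had a median below 0.

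Complex III, which passes electrons to cytochrome c, was higher in AKT1.MYC as a sum in every type, from a log2 ratio of 0.18 in hepatocyte-lineage cells to 0.83 in erythroid cells. The hepatocyte-lineage sums were 4280 CPM in AKT1.MYC against 3779 CPM in NRAS.MYC.ND. Uqcrq, a small subunit, had 682 CPM in AKT1.MYC against 333 CPM in NRAS.MYC.ND in duct-like cells (1.04), and Uqcr10 was above 0 in all 8 types with a median of 0.62. The core proteins Uqcrc1 and Uqcrc2 and the Rieske iron-sulphur protein Uqcrfs1 had medians of 0.25, 0.08 and 0.04 and lay on both sides of 0. The order was not the same in every type: in hepatocyte-lineage cells Uqcrc2 had the highest ratio of the complex (0.56), and Uqcr11 (-0.06) and Uqcrh (-0.05), both small subunits, the lowest. In hepatocyte-lineage cells Uqcrq itself was nearly level, with 748 CPM in AKT1.MYC against 717 CPM in NRAS.MYC.ND.

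Complex IV, cytochrome c oxidase, gave the largest sum ratio of the 5 complexes in hepatocyte-lineage, duct-like, neutrophil, endothelial, T cell and fibroblast classes. Its 14 genes summed to 9455 CPM in AKT1.MYC against 6063 CPM in NRAS.MYC.ND in hepatocyte-lineage cells (0.64) and to 8683 CPM against 5502 CPM in duct-like cells (0.66). Cox6b1 had 866 CPM in AKT1.MYC against 489 CPM in NRAS.MYC.ND in hepatocyte-lineage cells and 585 CPM against 332 CPM in endothelial cells. Cox8a had 1260 CPM against 649 CPM in hepatocyte-lineage cells. Cox4i1, Cox5b, Cox6b1, Cox7a2, Cox7a2l, Cox7b and Cox8a were above 0 in all 8 types. Cox6a1 was not among them, with log2 ratios of 0.50 in hepatocyte-lineage and -0.29 in endothelial cells.

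Cox4i1, which early assembly starts from, had 1547 CPM in AKT1.MYC against 1038 CPM in NRAS.MYC.ND in hepatocyte-lineage cells (0.58). Cox6c had 824 CPM in AKT1.MYC against 565 CPM in NRAS.MYC.ND in the same cells (0.54), Cox7b 553 CPM against 408 CPM (0.44) and Cox7c 913 CPM against 738 CPM (0.31). All 4 were higher in AKT1.MYC there.

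Cox5a, the partner of Cox4i1 in early assembly, was higher in AKT1.MYC in 7 types, with 886 CPM against 505 CPM in hepatocyte-lineage cells and 835 CPM against 403 CPM in duct-like cells (1.05). In phagocytes it was lower, 702 CPM in AKT1.MYC against 917 CPM in NRAS.MYC.ND (-0.38). Its level depended on the kind of phagocyte in both libraries. Cells with at least 3 markers of Kupffer cells, the resident macrophages of the liver, and fewer of monocytes had 894 CPM in AKT1.MYC against 1239 CPM in NRAS.MYC.ND. Cells with monocyte markers had 688 CPM against 724 CPM, and cells with neither had 676 CPM against 699 CPM. Kupffer-marked cells were 160 of 3192 phagocytes in AKT1.MYC and 265 of 1301 in NRAS.MYC.ND. The Cox5a difference was largest in Kupffer-marked cells, and Cox5b did not share it, with 537 CPM in AKT1.MYC against 453 CPM in NRAS.MYC.ND in those cells. The marker labels depend on depth, which differed. Kupffer-marked cells had a median of 4679 UMIs in AKT1.MYC against 12354 in NRAS.MYC.ND, and cells with neither 1494.5 against 6859. The part of depth in these proportions and levels was not tested.

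The tissue isoforms of complex IV gave the widest ratios, on few UMIs. Cox7a1, the isoform known from heart and skeletal muscle, had 164 UMIs or 26.7 CPM in AKT1.MYC against 13 UMIs or 3.21 CPM in NRAS.MYC.ND in hepatocyte-lineage cells (log2 3.06, with an interval that begins at 2.25). In duct-like cells it had 222 UMIs or 18.4 CPM against 2 UMIs or 2.43 CPM (2.92, 1.05 to 5.98), and in phagocytes 8.59 CPM against 2.45 CPM (1.81, 1.20 to 2.47). Its ubiquitous counterpart Cox7a2 had 865 CPM in AKT1.MYC against 495 CPM in NRAS.MYC.ND in hepatocyte-lineage cells. Cox7a1 was above 0 in all 4 types with at least 30 UMIs, and in 3 of the 4 after subtracting 30% free RNA. Cox6b2, known from testis, had 9.30 CPM in AKT1.MYC against 25.2 CPM in NRAS.MYC.ND in hepatocyte-lineage cells (-1.44, -1.93 to -0.96).

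Cox4i2, the isoform of Cox4i1 that low oxygen is known to induce and that pericytes are known to express, was at 45.5 CPM (222 UMIs) in AKT1.MYC fibroblasts and pericytes against 10.1 CPM (6 UMIs) in NRAS.MYC.ND (2.17, 1.03 to 3.63). The makeup of the class differed: Rgs5, a pericyte gene, had 170 CPM in AKT1.MYC against 116 CPM in NRAS.MYC.ND, and Dcn, a fibroblast gene, 2628 CPM against 7694 CPM. In AKT1.MYC cells with at least 2 UMIs of Rgs5 or Notch3 and under 2 of Dcn, Lum or Pdgfra, Cox4i2 stood at 250.03 CPM in 24 cells, and NRAS.MYC.ND had 0 such cells. Cells with only the fibroblast genes had 30.1 CPM (23.9 to 37.4) in AKT1.MYC (378 cells). In NRAS.MYC.ND they had 3.88 CPM (0.47 to 14.0), on 2 UMIs in 46 cells. Cells with both sets had 52.7 CPM (42.8 to 64.1) in AKT1.MYC (120 cells). In NRAS.MYC.ND they had 50.8 CPM on only 4 UMIs in 11 cells, with a wide interval of 13.8 to 130. In phagocytes the direction was opposite, with 3.68 CPM in AKT1.MYC against 9.34 CPM in NRAS.MYC.ND (-1.34, -1.88 to -0.83). There, 43 of 3192 AKT1.MYC and 76 of 1301 NRAS.MYC.ND cells had a UMI, up to 2 and 6 UMIs in a cell, at medians of 1762 and 7815 UMIs per cell. A UMI of Rgs5, Notch3 or Pdgfrb was also seen in 11 of those 43 AKT1.MYC cells and 2 of those 76 NRAS.MYC.ND cells. Kupffer-marked cells had 3.10 CPM on 3 UMIs (0.64 to 9.05) in AKT1.MYC against 3.16 CPM on 10 UMIs (1.51 to 5.80) in NRAS.MYC.ND. Cells with monocyte markers had 4.83 CPM (2.32 to 8.89) against 9.27 CPM (5.30 to 15.1). Cells with neither had 3.50 CPM (2.38 to 4.98) against 14.6 CPM (11.5 to 18.1).

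The ATP synthase was higher in AKT1.MYC as a sum in every type, with 8659 CPM against 6805 CPM in hepatocyte-lineage cells (0.35) and 6230 CPM against 4944 CPM in endothelial cells (0.33). The catalytic head genes Atp5a1, Atp5b and Atp5c1 summed to 1955 CPM in AKT1.MYC against 1395 CPM in NRAS.MYC.ND in hepatocyte-lineage cells (0.49, 0.44 to 0.53) and to 1152 CPM against 889 CPM in phagocytes (0.37). Atp5e, the small epsilon subunit of the stalk, was above 0 in all 8 types with a median of 0.57. Atp5l, the membrane subunit g, went the other way, with 191 CPM in AKT1.MYC against 245 CPM in NRAS.MYC.ND in hepatocyte-lineage cells and 157 CPM against 236 CPM in phagocytes. It was below 0 in 7 of 8 types.

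Singly, Atp5a1 had 594 CPM in AKT1.MYC against 414 CPM in NRAS.MYC.ND in hepatocyte-lineage cells (0.52), Atp5b 708 CPM against 558 CPM (0.34) and Atp5c1 653 CPM against 423 CPM (0.63). The coupling factor Atp5s, no subunit, was below 0 in 4 of 6 types, with 10.6 CPM in AKT1.MYC against 16.8 CPM in NRAS.MYC.ND in hepatocyte-lineage cells (-0.66) and 3.35 CPM against 8.17 CPM in endothelial cells (-1.28), and it had 14.0 CPM against 9.31 CPM in T cells (0.59) on 4 UMIs in AKT1.MYC.

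The 3 c ring genes Atp5g1, Atp5g2 and Atp5g3 encode the same mature rotor protein with different import sequences, and their balance differed between the libraries. In hepatocyte-lineage cells Atp5g2 gave 1.66% of the c ring UMIs in AKT1.MYC against 4.95% in NRAS.MYC.ND. In phagocytes it gave 2.42% against 6.02%, and in endothelial cells 2.91% against 6.82%. In T cells it gave 4.31% against 6.39%, on 9 Atp5g2 UMIs in AKT1.MYC. Atp5g2 was at 17.6 CPM in AKT1.MYC against 42.2 CPM in NRAS.MYC.ND in hepatocyte-lineage cells (-1.26, -1.62 to -0.90) and at 15.5 CPM against 33.4 CPM in phagocytes (-1.11, -1.37 to -0.85). It was lower in AKT1.MYC in all 6 types with at least 30 UMIs, with the same signs under median of ratios scaling and 5 of 6 after subtracting 30% free RNA. Its interval included 0 in T cells (-1.79 to 0.31), fibroblasts and pericytes (-1.28 to 0.62) and duct-like cells (-1.07 to 0.26). Atp5g1 was higher in all 8 types, with 592 CPM against 417 CPM in hepatocyte-lineage cells, and the 3 genes together were at 1062 CPM in AKT1.MYC against 853 CPM in NRAS.MYC.ND. Atp5g3 lay near level there, 453 CPM against 393 CPM (0.20).

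On GRCm38 the annotation places Sdhd at chr9:50596357-50603812, Atp5g2 at chr15:102662864-102672352, Atp5l at chr9:44912557-44920742, Cox5a at chr9:57521274-57532426, Cox6b1 at chr7:30616861-30626151, Cox7a1 at chr7:30184144-30186078, Cox4i2 at chr2:152754173-152765037 and Ndufb5 at chr3:32736990-32751566.

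The promoters of 4 members are shown because these members moved in different directions while many others were higher together. They are the c ring gene Atp5g2 and the complex II anchor Sdhd, both lower in AKT1.MYC, Cox6b1, higher in all types, and the isoform Cox7a1. Each window runs from 250 bases before to 50 after the RefSeq gene start, 5′ to 3′ on the gene's strand, from build GRCm38.p6, and capitals mark matches to the motifs given after the sequences. The window of Atp5g2 lies at chr15:102670998-102671297, of Sdhd at chr9:50603800-50604099 and of Cox6b1 at chr7:30626065-30626364, all on the minus strand. That of Cox7a1 lies at chr7:30183921-30184220 on the plus strand. The Atp5g2 window falls inside the gene as annotated above, whose 5′ end is at 102672352, so the sources differ on its start.
Atp5g2 promoter: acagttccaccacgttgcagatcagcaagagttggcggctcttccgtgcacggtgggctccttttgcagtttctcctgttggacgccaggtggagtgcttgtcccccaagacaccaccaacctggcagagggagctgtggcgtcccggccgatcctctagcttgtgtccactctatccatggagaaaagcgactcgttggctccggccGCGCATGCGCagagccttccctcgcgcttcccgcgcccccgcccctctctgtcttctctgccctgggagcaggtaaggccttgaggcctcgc
Sdhd promoter: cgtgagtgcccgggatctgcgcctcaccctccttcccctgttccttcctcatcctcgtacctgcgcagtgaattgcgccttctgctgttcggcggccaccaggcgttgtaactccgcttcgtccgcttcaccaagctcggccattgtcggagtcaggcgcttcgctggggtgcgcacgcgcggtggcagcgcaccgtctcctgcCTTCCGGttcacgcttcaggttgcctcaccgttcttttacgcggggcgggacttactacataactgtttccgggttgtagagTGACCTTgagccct
Cox6b1 promoter: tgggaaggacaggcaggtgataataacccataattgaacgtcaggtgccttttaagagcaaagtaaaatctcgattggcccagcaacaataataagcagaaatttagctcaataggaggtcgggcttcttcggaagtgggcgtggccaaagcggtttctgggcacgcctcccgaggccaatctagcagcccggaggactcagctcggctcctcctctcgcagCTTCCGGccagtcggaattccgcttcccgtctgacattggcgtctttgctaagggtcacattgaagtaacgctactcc
Cox7a1 promoter: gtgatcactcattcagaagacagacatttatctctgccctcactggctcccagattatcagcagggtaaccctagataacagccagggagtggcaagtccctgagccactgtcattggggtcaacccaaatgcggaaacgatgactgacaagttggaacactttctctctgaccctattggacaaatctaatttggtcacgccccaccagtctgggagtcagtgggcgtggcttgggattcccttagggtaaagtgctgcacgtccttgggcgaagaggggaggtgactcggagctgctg

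The letters searched, on both strands, were CATGCGC for the respiratory factor NRF1, CCGGAAG for ETS factors such as GABPA, AAGGTCA for oestrogen-related receptors and ATGGCGG for YY1, factors known to regulate respiratory genes. Promoters were matched by symbol for 69 of the 85 members. NRF1 letters were in 13 of the 69 (18.8%) against 4.41% of 27025 genes, ETS letters in 19 (27.5%) against 9.93%, oestrogen-related receptor letters in 8 (11.6%) against 5.38%, and YY1 letters in 11 (15.9%) against 4.69%. At least 1 of the 4 was in 39 member promoters (56.5%) against 21.5% of genes. Median GC content was 58.3% in member promoters against 52.7% in all. In Atp5g2 the marked run holds NRF1 letters on both strands, which overlap. Sdhd has ETS letters upstream and oestrogen-related receptor letters after the start, Cox6b1 has ETS letters, and Cox7a1 has none of the 4. Motifs were not compared with the direction of the members. A match is a run of letters, not a bound site.

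The 13 subunits encoded in mitochondrial DNA did not share the direction of the nuclear genes. They summed to 18851 CPM in AKT1.MYC against 31824 CPM in NRAS.MYC.ND in hepatocyte-lineage cells (-0.76) and to 16680 CPM against 25298 CPM in duct-like cells (-0.60). The log2 ratio was -1.10 in fibroblasts and pericytes, -0.79 in endothelial cells, -0.51 in T cells, -0.38 in phagocytes and 0.02 in neutrophils, and 1.34 in erythroid cells. Mitochondrial UMIs per UMI of the nuclear members were 0.622 in AKT1.MYC against 1.35 in NRAS.MYC.ND in hepatocyte-lineage cells, and 0.693 against 1.29 in endothelial cells. The cut at 20% mitochondrial UMIs per cell and the state of the cells at dissociation bear on this share, and their part was not tested.

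Single mitochondrial genes did not move alike. mt-Co3 was at 41.6 CPM in AKT1.MYC against 155 CPM in NRAS.MYC.ND in hepatocyte-lineage cells (-1.90), and mt-Nd2 at 1858 CPM against 5244 CPM (-1.50). mt-Co1, of the same complex as mt-Co3, was level there at 1099 CPM and 1085 CPM, and in phagocytes it was at 883 CPM in AKT1.MYC against 529 CPM in NRAS.MYC.ND (0.74). mt-Atp8 was at 58.0 CPM against 26.4 CPM in phagocytes (1.14).

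Other mitochondrial gene groups are set beside the share of genes with at least 100 UMIs that were above 0, which was 67.0% in hepatocyte-lineage cells, 66.2% in neutrophils, 56.3% in phagocytes, 47.2% in fibroblasts and pericytes, 41.9% in duct-like cells, 40.6% in endothelial cells and 39.8% in T cells. Of 77 measured mitochondrial ribosome genes, 69 were above 0 in hepatocyte-lineage cells with a median log2 ratio of 0.45, and 65 in duct-like cells with 0.43. Of the citric acid cycle genes, 16 of 18 were above 0 in hepatocyte-lineage cells (median 0.65) but 5 of 18 in fibroblasts and pericytes (-0.24). Assembly factors had 33 of 42 above 0 in hepatocyte-lineage cells (0.47) and 22 of 40 in T cells (0.11). The 14 regulators, among them Nrf1, Gabpa, Esrra and Tfam, had medians below 0 in most types: 4 of 14 were above 0 in hepatocyte-lineage cells (median -0.14) and 3 of 12 in endothelial cells (-0.27). Cytosolic ribosomal proteins, outside mitochondria, also took a larger share in AKT1.MYC in most types, with 11.3% of UMIs against 5.57% in neutrophils and 16.8% against 11.7% in endothelial cells, but 15.6% against 16.2% in hepatocyte-lineage cells.

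A list of 8 genes known to be induced by low oxygen held Ndufa4l2, Cox4i2, Pdk1, Bnip3, Lonp1, Higd1a, Egln3 and Ankrd37. Of these, Cox4i2 is also a member. Those above 0 were 7 of 8 measured in phagocytes, 7 of 7 in neutrophils, 7 of 7 in endothelial cells and 7 of 8 in fibroblasts and pericytes. They were 6 of 6 in T cells, 6 of 7 in duct-like cells, 5 of 7 in hepatocyte-lineage cells and the 1 measured in erythroid cells. The hepatocyte-lineage count is near the 67.0% of all genes with at least 100 UMIs above 0 in those cells. That share was 56.3% in phagocytes, 66.2% in neutrophils, 40.6% in endothelial cells and 47.2% in fibroblasts and pericytes. It was 39.8% in T cells, 41.9% in duct-like cells and 58.0% in erythroid cells. Egln3, an oxygen-sensing hydroxylase, had 18.3 CPM in AKT1.MYC against 0.437 CPM in NRAS.MYC.ND in phagocytes and 64.6 CPM against 13.7 CPM in neutrophils. Higd1a, a complex IV partner, had 247 CPM against 131 CPM in hepatocyte-lineage cells, and Bnip3, which promotes removal of mitochondria, 84.5 CPM against 193 CPM. Ndufa4l2, a relative of Ndufa4 that low oxygen is known to raise and that the member rule leaves out, had 290.4 CPM in AKT1.MYC against 26.9 CPM in NRAS.MYC.ND in fibroblasts and pericytes.

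Within a library and type, cycling cells (at least 3 of 12 cell cycle markers) had a larger share of member UMIs than the rest wherever both had at least 50 cells. It was 3.78% in 59 cycling against 3.46% in 454 other hepatocyte-lineage cells of AKT1.MYC, and 3.32% in 114 against 3.11% in 623 duct-like cells. It was 2.71% in 104 against 2.29% in 3088 AKT1.MYC phagocytes, 2.72% in 77 against 2.10% in 1358 NRAS.MYC.ND T cells, and 2.05% in 65 against 1.85% in 788 NRAS.MYC.ND endothelial cells. Cycling cells were also deeper, with a median of 23313 against 3201 UMIs in the first of these pairs. Among phagocytes, cells with monocyte markers had 2.45% in AKT1.MYC against 2.12% in NRAS.MYC.ND, Kupffer-marked cells 2.28% against 1.93%, and cells with neither 2.30% against 1.84%. These labels depend on depth, and its part was not tested. NRAS.MYC.ND T cells with Cd8a or Cd8b1 had 2.25% and those with Cd4 2.18%, with overlapping intervals.

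Hepatocyte-lineage cells were the highest type for most members in AKT1.MYC and for fewer in NRAS.MYC.ND. Of 65 AKT1.MYC members with at least 10 UMIs in every type, 55 were highest in hepatocyte-lineage cells, and of 73 in NRAS.MYC.ND 27 were highest there, 17 in duct-like cells and 14 in T cells. The lowest type was most often erythroid cells, for 24 of 65 members in AKT1.MYC and 42 of 73 in NRAS.MYC.ND. These levels are relative to all UMIs, and erythroid markers made up 280549 CPM of AKT1.MYC and 550916 CPM of NRAS.MYC.ND erythroid cells. Without mitochondrial, ribosomal protein and haemoglobin UMIs in the total, the summed share was lowest in neutrophils in both libraries. The types differ between the libraries, since NRAS.MYC.ND also has B cells, the lowest type for 9 members, and conventional dendritic cells, the highest for 5. The span from the lowest to the highest type had a median of 0.93 on the log2 scale in AKT1.MYC against 1.57 in NRAS.MYC.ND. The widest spans in AKT1.MYC were those of Ndufab1, Ndufb5, Ndufa6, Ndufa4 and Uqcr11, and Ndufa6 led in NRAS.MYC.ND, with 614 CPM in hepatocyte-lineage and 80.9 CPM in erythroid cells.

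Outside the members, the genes whose log2 CPM followed the summed members most closely over the 18 columns of type and library were Psmb4 (Pearson r = 0.947 across these columns), a proteasome subunit, Mrpl12 (0.945), of the mitochondrial ribosome, Usmg5 (0.944), an ATP synthase subunit that the prefixes miss, Edf1 (0.937), a transcriptional coactivator, and Romo1 (0.935), a mitochondrial membrane protein. They were picked from 967 genes with at least 10 UMIs in each column, the columns share 2 libraries and their depth, and the values are a description.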

How the data were processed

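Single-cell RNA was measured in 1 library of AKT1.MYC and 1 of NRAS.MYC.ND mouse liver tumours. The deposited matrices hold raw UMI counts per gene and barcode, made by the authors with Cell Ranger. Per the submitters' processing notes the version was 6.1.2 and the build mm10, while the file headers name 6.1.1. No source used here names the gene annotation. Gene positions came from the GRCm38 annotation by identifier, and promoter windows from RefSeq on GRCm38.p6.

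Cells with at least 500 UMIs, at least 250 genes and no more than 20% of UMIs from mitochondrial genes entered the analysis. Types were gated by 155 of 156 markers found in the files. A cell needed at least 3 distinct markers of a type and a marker level above a threshold set per library. Only T cells, B cells, phagocytes, neutrophils and endothelial cells served as other types for setting it. They were picked at fixed marker levels of 32, 64, 128, 128 and 512 UMIs per 10000, the last for neutrophils. That threshold was the highest of the 98th percentiles of the level in these other types, and at least 8 UMIs per 10000. The hepatocyte and duct gates were thus not set against each other. Cells that passed 2 or more gates, 818 AKT1.MYC and 405 NRAS.MYC.ND cells, were left out, which was also the treatment of doublets. The gate thresholds were chosen after seeing the data, and the classes are rebuilt names, not the authors' annotation.

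UMIs were summed per type and library and expressed as CPM. Levels have exact Poisson intervals, shares exact Clopper-Pearson intervals and ratios exact conditional binomial intervals, at 95%. A count of 0 was set to 3 counts for ratios. A member was measured at 10 UMIs over both libraries, named at 30, and called at 2-fold. Genes named by rule were members whose interval left out 2-fold, the 3 highest and 3 lowest ratios per type, core and catalytic subunits, isoform members, the 5 widest spans across types and the 5 genes most like the sum. Others were named after their values were seen. One item is not reported here. With 1 library per group no test was made. The ratio step was tested on simulated counts. The members, lists and markers were chosen with earlier results of these data known. Python 3.11.15, numpy 2.4.6, scipy 1.17.1, pandas 2.3.3 and matplotlib 3.10.9 were used.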

Additional observations from a re-analysis of the deposited data

Results flagged for a closer look

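Cox4i2, the complex IV isoform known from pericytes and low oxygen, had opposite directions in 2 cell types. Its log2 ratio of AKT1.MYC over NRAS.MYC.ND was -1.34 in mononuclear phagocytes and 2.17 in fibroblasts and pericytes. The phagocyte value rests on 45 UMIs in AKT1.MYC against 107 in NRAS.MYC.ND, and the fibroblast value on 222 UMIs in AKT1.MYC against 6 in NRAS.MYC.ND. The difference between the types was not tested.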

How the results depend on the processing

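No paired analysis was possible because each group has 1 library. Over 12 settings, 95 of 96 log2 ratios of the summed members stayed above 0 and 1 was below. Hepatocyte-lineage cells had the highest share in both libraries in the main analysis and under the 8 alternatives in which types were ranked: the mitochondrial limit, the UMI minimum, the other total, equal weight, both free RNA subtractions, the gate of 4 markers and leaving out the deepest cells. The ratios below name the types in which a value left its counting interval.

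With median of ratios scaling the ratio was 0.078 in T cells, 0.68 in neutrophils, 0.18 in phagocytes, 0.41 in endothelial cells, 0.61 in fibroblasts and pericytes, -0.12 in erythroid cells, 0.20 in hepatocyte-lineage cells and 0.72 in duct-like cells. The erythroid value reversed because the median gene of that class stood at 1.06. Without mitochondrial, ribosomal protein and haemoglobin UMIs in the total it was, in the same order, 0.32, 0.91, 0.33, 0.41, 0.43, 0.31, 0.41 and 0.54. With equal weight per cell it was 0.22 in T cells, 1.11 in neutrophils, 0.33 in phagocytes, 0.39 in fibroblasts and pericytes, 1.52 in erythroid cells, 0.34 in hepatocyte-lineage cells and 0.35 in duct-like cells. Without the deepest 5% of cells it was 1.18 in neutrophils, 0.24 in phagocytes, 0.32 in fibroblasts and pericytes, 1.35 in erythroid cells, 0.39 in hepatocyte-lineage cells and 0.40 in duct-like cells. After subtracting 10% free RNA it was 0.12 in T cells, 0.86 in neutrophils, 0.25 in phagocytes, 0.32 in endothelial cells and 1.03 in erythroid cells. A gate of 4 markers gave 1.14 in neutrophils, a minimum of 1000 UMIs 0.26 in phagocytes and 0.62 in erythroid cells, and a mitochondrial limit of 10% gave 0.42 in hepatocyte-lineage cells. Without the 5 members with most UMIs it was 0.32 in endothelial cells, 0.31 in fibroblasts and pericytes, 0.41 in hepatocyte-lineage cells and 0.43 in duct-like cells.

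The other settings were chosen after seeing the data. Subtracting 30% free RNA gave 0.039 in T cells, 1.08 in neutrophils, 0.17 in phagocytes, 0.28 in endothelial cells, 0.32 in fibroblasts and pericytes, 1.41 in erythroid cells, 0.50 in hepatocyte-lineage cells and 0.50 in duct-like cells. Without cycling cells it was 0.26 in phagocytes, 0.31 in endothelial cells, 2.15 in erythroid cells, 0.48 in hepatocyte-lineage cells and 0.40 in duct-like cells. All epithelial cells together gave 0.39.

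Members at least 2-fold higher in AKT1.MYC, summed over 8 types, numbered 68. They were 36 with median of ratios scaling, 129 with equal weight per cell, 115 without the deepest 5% of cells and 122 after subtracting 30% free RNA. The hepatocyte-lineage share was 3.58% in AKT1.MYC against 2.67% in NRAS.MYC.ND at the 10% mitochondrial limit and 4.31% against 3.23% without mitochondrial, ribosomal protein and haemoglobin UMIs. It was 3.33% against 2.62% with equal weight per cell, 3.43% against 2.61% without the deepest cells, 3.61% against 2.64% after subtracting 10% free RNA and 3.78% against 2.67% after subtracting 30%. Apart from the reversed erythroid value, the cause of these shifts was not tested.

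Depth limits the members with few UMIs: Cox7a1 and Cox4i2 had under 30 UMIs in several types, and complex II had 4 of 8 genes measured in erythroid cells. Counting intervals hold no variation between mice, and 1 library per group cannot show it.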

Other observations

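Cells that passed no gate, 2798 of AKT1.MYC and 676 of NRAS.MYC.ND, had 3.08% of UMIs from the members in AKT1.MYC against 2.15% in NRAS.MYC.ND. These cells enter no comparison of cell types.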
